A study of Gracilariopsis lemaneiformis with 12 samples.

Results

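The 6 libraries described here came from tissue of the red seaweed Gracilariopsis lemaneiformis, strain 981, under treatment with indole-3-acetic acid (IAA) at 100 µM. 3 libraries were taken at day 3 of the treatment and 3 at day 1, out of 12 libraries in the series. Their groups come from the labels. The other 6 libraries are untreated controls of the same strain, 3 at day 3 and 3 at day 1. All 12 carry the tissue label rhizoids, with the source given as branch rhizoids plus 2 cm of primary rhizoid. The series' design text also speaks of branch tissue and leaves it unclear if the same parts were taken on both days, so time under IAA and the tissue taken cannot be told apart. The labels do not describe the replicates as separate cultures, so the p-values measure only how these samples vary, and that may be technical.

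G. lemaneiformis is farmed as a source of agar, a gel-forming polysaccharide of the red algal cell wall. IAA is the main natural auxin, the hormone class that directs cell elongation, branching and rooting in land plants. Land plants read it through a nuclear receptor that triggers the breakdown of transcriptional repressors, and compounds of the auxin class also occur in red algae. The series asked what IAA does to the transcriptome of this alga alongside growth and branching. A comparison of IAA-treated tissue at 2 times shows how far the transcript levels moved between an early and a later stage of the treatment. The controls at the same days show how much of that movement also occurred without IAA.

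Transcript levels are FPKM values, fragment numbers scaled to the length of an assembled sequence and to library size, and are listed for 30780 sequences. The files pair no ID with a gene name, so changes are described by number, size and abundance, and the tissue label was not checked against marker genes. IDs that begin with CL and a cluster number are contigs that are read here as variants of 1 locus. Their FPKM were summed over each of 2479 clusters, and every ID that begins with Unigene was taken as a locus of its own, which gave 25766 loci. Levels were tested as log2(FPKM + 1) for the 14065 sequences and 11044 loci whose mean over the 12 libraries reached 1 FPKM. A change was called at a Benjamini-Hochberg adjusted p under 0.05 in limma. Fold changes on this scale understate the change of low sequences.

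The 6 pairs of IAA libraries from the same day had a Pearson's r of 0.981 to 0.984 across tested sequences, a description over sequences that are not independent, and the 9 pairs between days had 0.959 to 0.964. Summed FPKM was 305700 to 308800 in day-3 IAA libraries and 299800 to 302800 in day-1 IAA libraries. Relative depth, estimated from the steps in low Unigene values, was 0.981 to 0.986 at day 3 and 1.00 to 1.01 at day 1, where the mean of the 12 libraries is 1. The estimate keeps only values close to the lowest non-zero value of each sequence, so it cannot show large differences in depth. Absolute depth is unknown.

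More sequences were listed at 0 in each day-3 IAA library than in any day-1 IAA library. The day-3 IAA libraries listed 7187, 7127 and 7179 sequences at 0, and the day-1 IAA libraries listed 6630, 6664 and 6612. The ranges do not overlap, and the exact two-sided permutation test gave p = 0.1, the smallest value that 3 libraries against 3 can give. The lower relative depth at day 3 goes in the same direction, and its part in the number of zeros was not tested. The day-3 control libraries, at a relative depth of 1.00 by the same limited estimate, listed 7934, 7901 and 7729 sequences at 0. The day-1 control libraries listed 6867, 7014 and 7041.

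The share of the library held by the most abundant loci was also above the day-1 range in each day-3 IAA library. The 10 highest loci of each library held 10.74%, 10.45% and 10.25% of summed FPKM in day-3 IAA libraries, against 9.053%, 9.379% and 9.485% in day-1 IAA libraries. The exact two-sided permutation test again gave the smallest possible p of 0.1. The same share was 10.7% to 11.4% in day-3 controls and 9.27% to 9.70% in day-1 controls.

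Between the days 1465 loci rose and 2283 fell with IAA, by limma's adjusted p, which is 13.3% and 20.7% of the 11044 tested. At the level of single sequences 1545 rose and 2172 fell, or 11.0% and 15.4% of 14065. Most called changes were small. The median size among loci was 1.28-fold for rises and 1.29-fold for falls, and 935 of the rises and 1593 of the falls were below 0.5 on the log2 scale. Rises reached large sizes more often than falls did in this list. A log2 change of at least 1 was seen in 216 loci that rose, 1.96% of those tested, and in 87 loci that fell, 0.788%. At 2 or more there were 20 rises and 10 falls.

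Among the scalings run, only median-of-ratios size factors turned the balance of directions. Rises were 44.1% of the called loci after quantile normalization and 33.5% when scaled to the same sum. They were 42.6% when scaled to sequences of at least 20 FPKM. Of the called loci 39.1% had risen on the deposited scale, and 61.2% had done so with median-of-ratios size factors, where 2072 loci rose and 1313 fell. That scaling placed the median log2 change of all loci at 0.003, against -0.07 on the deposited scale. The large changes were less affected, with 238 rises and 71 falls under the size factors and 236 and 79 after quantile normalization. The number of large falls depends on the pseudocount added before the logarithm, with 214 at 0.1 FPKM and 137 at 0.5 FPKM. Large rises numbered 288 and 255 at these pseudocounts.

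Calls were most frequent among abundant loci. At 20 FPKM or more, 822 of 3238 loci rose and 1012 fell, at 5 to 20 FPKM 349 of 1814 rose and 457 fell, and at 1 to 5 FPKM 294 of 5992 rose and 814 fell. The spread between replicates narrows with abundance: the median SD on the log2 scale at day 3 was 0.0298, 0.0755 and 0.162 in these classes, and 0.0350, 0.0812 and 0.161 at day 1. Large changes numbered 97 rises and 43 falls at 1 to 5 FPKM, 75 and 24 at 5 to 20 FPKM, and 44 and 20 at 20 FPKM or more. Both directions together, that is 2.34%, 5.46% and 1.98% of the loci tested in these classes. The medians of all loci in the low, middle and high class were -0.13, -0.05 and -0.02 on the log2 scale with IAA. In controls they were -0.62, -0.20 and -0.02.

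**Figure D1:**
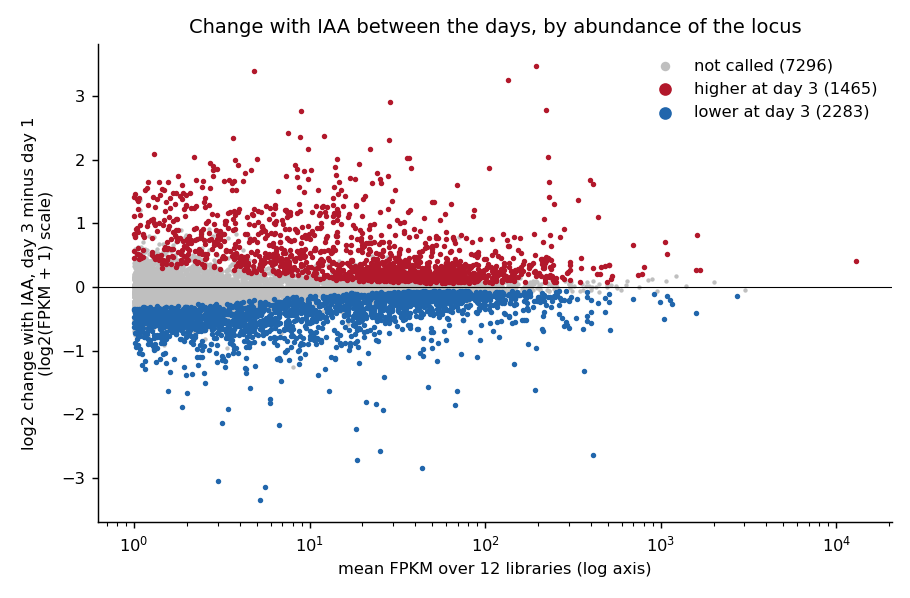
Log2 change with IAA, day 3 minus day 1, for each of the 11044 tested loci (y axis) against its mean FPKM over the 12 libraries (x axis, log scale). The 1465 loci that rose are red, the 2283 that fell are blue and the others are grey. Called changes reach closer to 0 as abundance increases, and called changes of 1 or more in size make up 2.34%, 5.46% and 1.98% of the loci at 1 to 5, 5 to 20 and 20 FPKM or more.

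The 1000 most abundant loci all had a mean of 64.1 FPKM or more. Of them 304 rose and 338 fell, and 16 rises and 8 falls reached 1 on the log2 scale. Over all tested loci 13.3% rose and 20.7% fell, and 1.96% and 0.788% did so by 1 or more. A change below 0.5 was seen in 91.3% of the 1000 and in 87.5% of all tested loci. Among the 100 most abundant, 32 rose and 31 fell, and the change lay between -2.64 and 1.68 on the log2 scale. On the linear scale the movement was concentrated. The loci that rose gained 25760 FPKM in all, and the 10 with the largest gains made up 31.0% of it. The loci that fell lost 19260 FPKM, and the 10 with the largest losses made up 18.3%. The median gain was 4.85 FPKM and the median loss 2.90 FPKM.

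The 216 loci with large rises together held 3.40%, 3.36% and 3.405% of summed FPKM in the day-3 IAA libraries, against 1.10%, 1.11% and 1.17% in the day-1 IAA libraries. They were chosen on these libraries, so that difference is a description and was not tested. In the controls, which took no part in the choice beyond the filter and the shared estimate of spread, they held 1.92%, 1.91% and 1.91% at day 3 and 1.07%, 1.06% and 1.09% at day 1. The 87 loci with large falls held 0.389%, 0.388% and 0.392% in day-3 IAA libraries and 1.36%, 1.33% and 1.33% in day-1 IAA libraries. In controls they held 0.438%, 0.443% and 0.431% at day 3 and 0.741%, 0.724% and 0.723% at day 1. For both sets the control days do not overlap, and they lie in the same order as the days with IAA. The IAA libraries of day 1 hold the highest share of the falling set, and those of day 3 the highest share of the rising set.

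**Figure D2:**
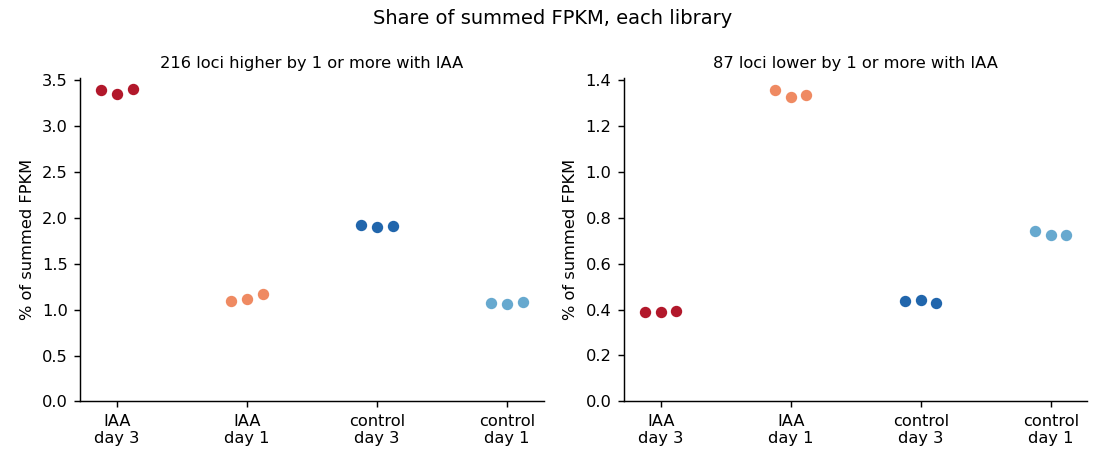
Percent of summed FPKM in each of the 12 libraries (points) held by the 216 loci that rose by 1 or more on the log2 scale with IAA (left) and by the 87 that fell by 1 or more (right). The loci were chosen on the IAA libraries. The rising set is at 3.36% to 3.405% in day-3 IAA libraries and the falling set at 0.388% to 0.392%, with the controls of the same day at 1.91% to 1.92% and 0.431% to 0.443%.

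The change between days with IAA was set against that in controls, which uses separate libraries. Of the 216 loci with large rises, 141 (65.3%) were also called higher at day 3 in controls, where 13.6% of all tested loci were. Of the 87 with large falls, 70 (80.5%) were also called lower in controls, where 57.8% of all loci were. The median log2 change of the large rises was 1.33 with IAA and 0.63 in controls, and that of the large falls was -1.23 with IAA and -0.98 in controls. These loci were picked for a large change with IAA, so part of the gap between the medians would arise from the choice alone. The high shares do not rest on the scaling. With median-of-ratios size factors 77.7% of the large rises were called higher in controls, against 38.2% of all loci, and 69.0% of the large falls were called lower, against 35.3%. After quantile normalization the values were 78.8% against 24.1% for rises and 64.6% against 21.1% for falls.

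Over all called loci, 765 rose both with IAA and in controls, which is 52.2% of the 1465 with IAA and 51.0% of the 1500 in controls. Those that fell in both numbered 1724, which is 75.5% of the 2283 with IAA and 27.0% of the 6387 in controls. Over all tested loci 13.6% rose and 57.8% fell in controls, and 13.3% rose and 20.7% fell with IAA. These counts move with the scaling. With median-of-ratios size factors 1728 loci rose in both, 83.4% of the list with IAA against 38.2% of all loci, and 755 fell in both, 57.5% against 35.3%. After quantile normalization 1008 rose in both, 65.9% against 24.1%, and 1002 fell in both, 51.7% against 21.1%. On the deposited scale 258 loci rose with IAA and fell in controls, 17.6% of the rises with IAA, and 169 fell with IAA and rose in controls, 7.40% of the falls. Falls with a log2 change of 1 or more in controls numbered 1076, or 9.74% of all tested loci. Of these, 487 fell with IAA, 582 were not called, and the median log2 change was -0.30 with IAA against -1.17 in controls. Rises of that size in controls numbered 124, or 1.12%, of which 92 rose with IAA, and the medians were 1.04 and 1.34. These sets were counted on the deposited scale only. They were picked on the controls, so a smaller change with IAA would in part arise from that choice.

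**Figure D3:**
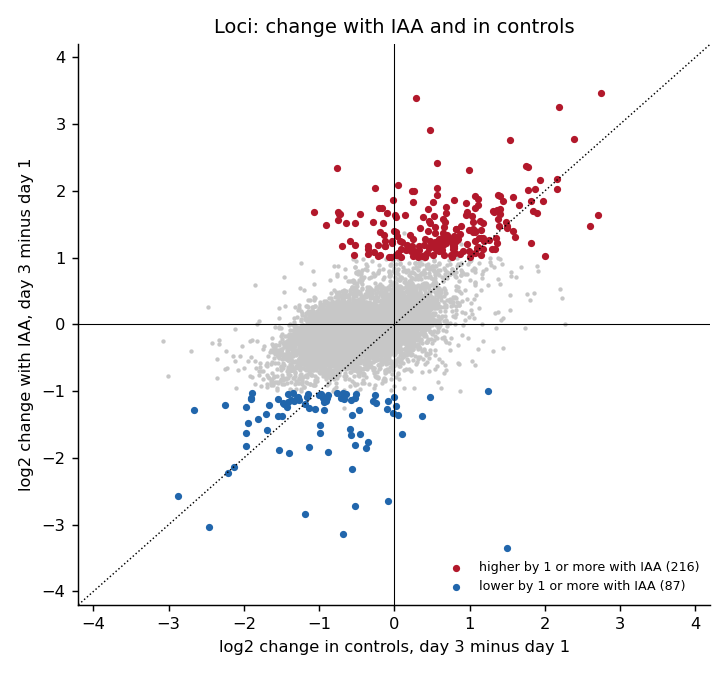
Log2 change between day 3 and day 1 with IAA (y axis) against the same change in controls (x axis) for the 11044 tested loci. Red points are the 216 loci higher by 1 or more with IAA, blue points the 87 lower by 1 or more, and the dotted line marks equal change. Most red points lie right of 0 and most blue points left of 0, and the grey cloud is shifted to the left, where the median control change of all loci is -0.35.

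The difference between the time change with IAA and that in controls was tested as limma's interaction contrast. It was more positive with IAA for 3907 loci and more negative for 846, or 35.4% and 7.66% of those tested. This balance is not stable to scaling, with 2190 and 3145 loci under median-of-ratios size factors and 1321 and 1639 after quantile normalization. The median difference of all loci was 0.27 on the deposited scale, 0.06 with size factors and -0.01 after quantile normalization. Of the 216 loci with large rises, 135 (62.5%) had a more positive change with IAA, and 30 of the 87 with large falls (34.5%) had a more negative one. With size factors these shares were 47.9% and 43.7%, and after quantile normalization they were 42.0% and 57.0%, so which set differed more often depends on the scaling. They are descriptions, since the loci were chosen on the IAA side of the contrast.

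Loci were named among those called, with 2 or more contigs, at least 5 FPKM in an IAA group mean and no overlap between days. Among these the largest rise of a summed level was in CL1170, which has 2 contigs. Its summed FPKM was 19.1, 19.6 and 18.5 in day-3 IAA libraries and 2.84, 3.79 and 3.82 in day-1 IAA libraries. In controls it was 13.97, 12.7 and 14.7 at day 3 and 2.91, 2.75 and 2.91 at day 1. Both contigs rose with IAA, and the days do not overlap with or without it. The log2 change was 2.17 ± 0.09 with IAA (SE, limma adjusted p = 2.12e-09) and 1.94 ± 0.09 in controls (limma adjusted p = 3.58e-09). The difference between them, 0.23 ± 0.12, was not called (limma adjusted p = 0.139).

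The second was CL1362, also of 2 contigs, which is a low locus. Its summed FPKM was 5.36, 7.13 and 7.48 in day-3 IAA libraries and 1.26, 1.02 and 0.69 in day-1 IAA libraries. It was 3.13, 1.94 and 1.25 in day-3 controls and 1.04, 1.18 and 0.91 in day-1 controls. The day-3 IAA libraries stand above all others, while the control days differ less and their ranges nearly meet. The log2 change was 1.94 ± 0.20 with IAA (limma adjusted p = 1.09e-05) and 0.56 ± 0.20 in controls (limma adjusted p = 0.0246). The rise was larger with IAA by 1.38 ± 0.28 (limma adjusted p = 0.00227).

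Among loci that meet the same conditions, the largest falls were in CL1695 and CL2132. The summed FPKM of CL1695, over 3 contigs, was 10.1, 9.21 and 7.27 in day-3 IAA libraries and 35.6, 36.6 and 36.9 in day-1 IAA libraries. It was 14.6, 17.7 and 15.6 in day-3 controls and 46.6, 41.5 and 42.6 in day-1 controls, so day 3 lay below day 1 in both arms. The log2 change was -1.93 ± 0.09 with IAA (limma adjusted p = 1.39e-08) and -1.39 ± 0.09 in controls (limma adjusted p = 1.41e-07). The difference, -0.54 ± 0.13, was called (limma adjusted p = 0.00713). Of the 2 tested contigs of CL1695, 1 was called lower with IAA.

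CL2132, with 2 contigs, was at 1.61, 1.04 and 1.66 FPKM in day-3 IAA libraries and 8.24, 8.44 and 7.63 FPKM in day-1 IAA libraries. It was at 1.16, 1.22 and 1.12 FPKM in day-3 controls and 3.00, 3.35 and 2.67 FPKM in day-1 controls. The day-1 IAA libraries stand above all others, and the day-3 libraries of both arms overlap. The log2 change was -1.91 ± 0.11 with IAA (limma adjusted p = 8.17e-08) and -0.88 ± 0.11 in controls (limma adjusted p = 3.38e-05). It was more negative with IAA by -1.03 ± 0.16 (limma adjusted p = 0.000369). Only 1 of the 2 contigs of CL2132 was tested, and that contig was called lower with IAA.

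**Figure D4:**
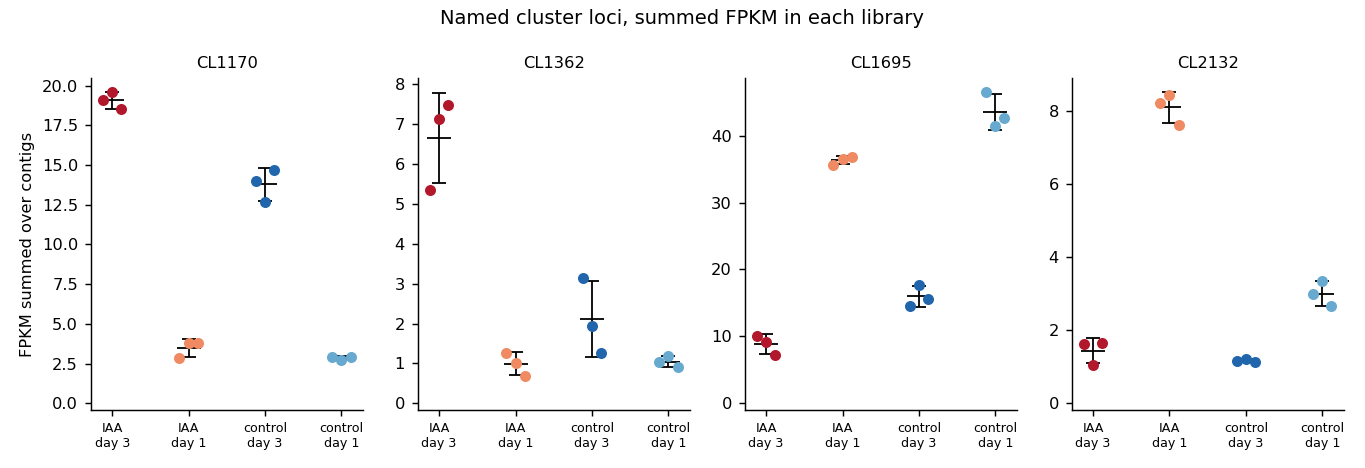
Summed FPKM (y axis, one scale per panel) of the 4 named cluster loci in each library of the 4 groups (x axis). Points are libraries, and bars give the mean ± SD of 3 libraries. All 4 loci move the same way in controls as with IAA. CL1362 is highest in day-3 IAA libraries at 5.36 to 7.48 FPKM, and CL2132 is highest in day-1 IAA libraries at 7.63 to 8.44 FPKM.

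Contigs with large changes were compared with the summed level of their locus. Rises by a log2 change of 1 or more were seen in 84 of 4932 tested cluster contigs, against 271 of all 14065 tested sequences (1.93%). Of these 84 contigs, 79 lie in clusters with 2 or more contigs. These 79 contigs lie in 57 loci, so some loci count more than once. The summed level of the locus was called higher for 64 of the contigs and reached 1 for 33. Of all 1911 tested cluster loci 18.7% were called higher, and 27 loci rose by 1 or more. Falls of that size were seen in 54 of the 4932 cluster contigs, against 127 of all 14065 tested sequences (0.903%). All 54 lie in clusters with 2 or more contigs. Of these 54, which lie in 44 loci, the locus was called lower for 37 and reached -1 for 17. Of all tested cluster loci 28.9% were called lower, and 12 fell by 1 or more. The locus was not called for 10 of the rising and 11 of the falling contigs, and was called in the opposite direction for 5 and 6. The median log2 change was 1.46 for the rising contigs and 0.59 for their loci, and -1.37 and -0.27 for the falling ones. The contigs were picked for their size of change and a sum includes other contigs, so a smaller change of the locus follows in large part from the choice. A sum also includes the picked contig, which favours a call in the same direction, so these numbers are a description. The shares of all cluster loci count each locus once and take in clusters with 1 contig. Clusters with 2 or more contigs and a tested contig numbered 1818. Of these, 289 held only contigs called higher among their calls, 403 only contigs called lower, and 110 held both. The sums of those 110 were called higher in 30, lower in 33 and neither in 47. Contigs of a cluster may share sequence, so how reads were divided among them is uncertain, and the sources used here do not give the authors' method for it.

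The single sequences with the 2 largest rises and the 2 largest falls under the naming rule include 3 such contigs. Each of these 4 is listed at 0 in some libraries. An exact 0 in a table without counts may be a failed estimate, so no mean is given for them. CL298.Contig1_All was at 23.1, 28.2 and 32.3 FPKM in day-3 IAA libraries and at 0, 0 and 2.04 FPKM in day-1 IAA libraries. It was at 40.2, 39.2 and 41.8 FPKM in day-3 controls and listed at 0 in all day-1 controls, so both arms hold it at day 3. The rise was called with IAA (limma adjusted p = 3.73e-06). Its difference from controls was not called (a log2 value of -1.07 ± 0.48, limma adjusted p = 0.114), but was called without replicate 3 of day-1 IAA, the library at 2.04 FPKM (-0.53, limma adjusted p = 0.0316). The other settings gave limma adjusted p up to 0.258. The 6 contigs of CL298 together were at 109 ± 1.495 FPKM at day 3 and 103 ± 3.13 FPKM at day 1 with IAA (SD, n = 3), of which 2 rose and 1 fell. The log2 change of this sum was 0.08 with IAA, not called (limma adjusted p = 0.0562), and 0.24 in controls (limma adjusted p = 2.66e-05). For the sum the difference from controls was called (-0.16, limma adjusted p = 0.0110).

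CL28.Contig4_All was at 26.3, 17.6 and 19.1 FPKM in day-3 IAA libraries and at 0, 1.58 and 0 FPKM in day-1 IAA libraries. In controls it was at 30.9, 32.7 and 33.0 FPKM at day 3 and 5.02, 10.85 and 11.05 FPKM at day 1. The rise was called in both arms (limma adjusted p = 1.08e-05 with IAA and 0.00147 in controls). On the log2 scale the rise was larger with IAA by 2.18 ± 0.51 (limma adjusted p = 0.00801), and the day-1 IAA libraries are the lowest of the 4 groups. In FPKM the rise was not larger with IAA, so the log2 difference rests on the low day-1 IAA values. Its locus, of 5 contigs, was at 39.35 ± 2.11 FPKM at day 3 and 34.15 ± 2.52 FPKM at day 1 with IAA (SD, n = 3). For the locus sum the difference from controls was not called (-0.04 on the log2 scale, limma adjusted p = 0.727).

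Unigene1707_All was at 0, 2.18 and 0 FPKM in day-3 IAA libraries and 13.1, 13.2 and 15.8 FPKM in day-1 IAA libraries. It was at 2.91, 8.16 and 3.49 FPKM in day-3 controls and 0, 1.24 and 2.19 FPKM in day-1 controls. It fell with IAA (limma adjusted p = 0.000603) and rose in controls (limma adjusted p = 0.0282), and is the only one of the 4 with opposite calls. CL40.Contig2_All was listed at 0 in all 3 day-3 IAA libraries and was at 7.72, 10.01 and 8.59 FPKM in day-1 IAA libraries. It was at 0.12, 0 and 1.98 FPKM in day-3 controls and 1.99, 1.83 and 3.27 FPKM in day-1 controls. The fall was called with IAA (limma adjusted p = 3.12e-05) and in controls (limma adjusted p = 0.0139). The 2 contigs of CL40 together fell with IAA, to 15.6 ± 1.20 FPKM at day 3 against 27.7 ± 1.31 FPKM at day 1 (SD, n = 3), with a limma adjusted p of 4.99e-06.

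**Figure D5:**
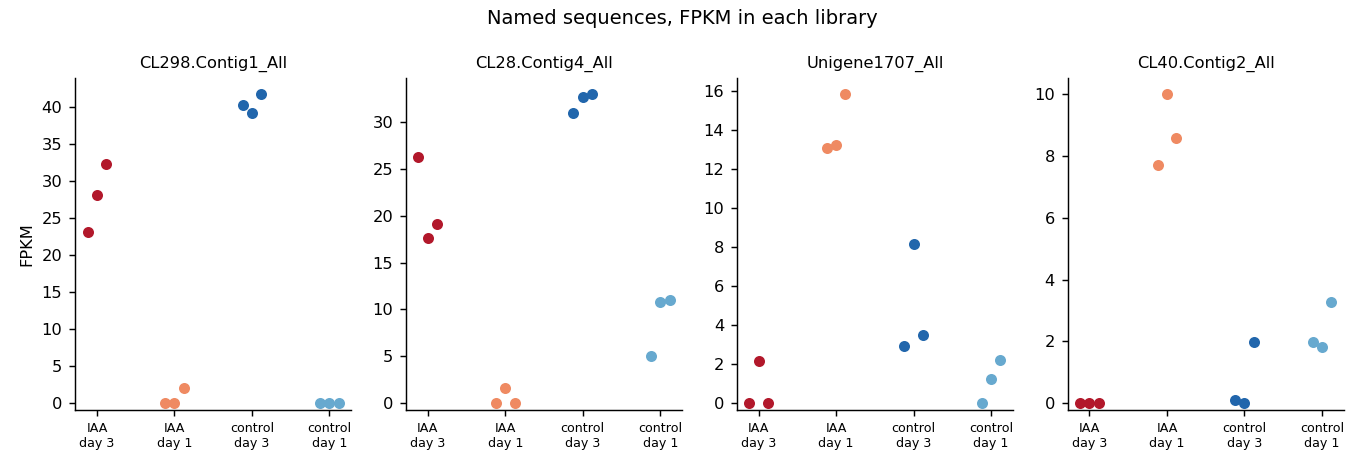
FPKM (y axis, one scale per panel) of the 4 named sequences in each library of the 4 groups (x axis), with each point 1 library. CL298.Contig1_All and CL28.Contig4_All are high at day 3 in both arms, while Unigene1707_All and CL40.Contig2_All are highest in day-1 IAA libraries, at 13.1 to 15.8 and 7.72 to 10.01 FPKM.

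Loci listed at 0 on one day and present on the other were mostly at very low levels. With IAA 72 loci were above 0 in all day-3 libraries and listed at 0 in all day-1 libraries, with a median day-3 level of 0.243 FPKM. In the other direction 138 loci were above 0 in all day-1 libraries and listed at 0 in all day-3 libraries, with a median of 0.1 FPKM. Among the 2047 low Unigene sequences used for relative depth, 1 step in the values, read as 1 fragment, was worth a median of 0.27 FPKM. That choice left out sequences with smaller steps, so a fragment can be worth less in other sequences. Such patterns can still rest on a few reads a library. The 72 and 138 are 0.279% and 0.536% of the 25766 loci. Of the 72, 11 (15.3%) were also above 0 in all day-3 controls, as were 63.3% of all loci. Of the 138, 28 (20.3%) were above 0 in all day-1 controls, as were 69.0% of all loci. In each set 4 loci showed the same pattern in the controls.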

How the data were processed

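RNA-seq levels of 12 libraries were taken from 1 table that the authors deposited in FPKM, per the file headers, with 2 decimals. Bowtie2 2.2.5 is listed in the submitters' processing notes, with no role stated. The sources used here do not give the assembler, the quantifier or any filters. The authors' tables of IAA against control were read only to check that their FPKM equal those of this table, with 0 values differing.

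FPKM were summed per locus over contigs sharing the ID text before ".Contig". Features whose mean over 12 libraries reached 1 FPKM were analysed as log2(FPKM + 1). One limma 3.58.1 model (R 4.3.3) of 4 group means with an abundance trend gave two-sided tests, adjusted by Benjamini-Hochberg over all features of a level. The fit was tested on simulated data. Named IDs had an adjusted p under 0.05, at least 5 FPKM in a group mean and no overlap between days, and were the 2 largest changes each way. Named loci also had 2 or more contigs. The comparison, its members and the naming rule were chosen with earlier results of these data known. 23 alternatives were run: pseudocount, filter, scaling, libraries fitted, trend, replicate block and leaving out each library.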

Additional observations from a re-analysis of the deposited data

Results flagged for a closer look

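For 6 of the 8 named items the change between days with IAA differed from that in controls by limma's interaction contrast. Such a difference was called for 43.0% of all tested loci and 32.3% of all tested sequences. The value was more positive with IAA for CL28.Contig4_All (2.18 ± 0.51 on the log2 scale, SE, limma adjusted p = 0.00801) and for locus CL1362 (1.38 ± 0.28, limma adjusted p = 0.00227). It was more negative with IAA for Unigene1707_All (-4.85 ± 0.73, limma adjusted p = 0.000573), CL40.Contig2_All (-2.14 ± 0.48, limma adjusted p = 0.00649), locus CL1695 (-0.54 ± 0.13, limma adjusted p = 0.00713) and locus CL2132 (-1.03 ± 0.16, limma adjusted p = 0.000369). All 8 items were named for a large change with IAA, which favours a difference from controls. The sizes for the 3 single sequences rest on values listed at 0 and so on the pseudocount.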

How the results depend on the processing

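The named changes with IAA kept their direction and call under every alternative that could test them. CL40.Contig2_All, CL1362 and CL2132 are not tested at a mean of at least 5 FPKM, and a fit of the 6 IAA libraries gives no difference from controls. For loci, median-of-ratios size factors turned 2283 falls into 1313, and for sequences 2172 into 1439. Differences from controls moved most: for sequences more positive with IAA, 3665 became 1674 at a mean of at least 5 FPKM, 2419 with size factors and 1504 after quantile normalization, and 880 more negative became 2554 with size factors. For loci 3907 more positive became 1730, 2190 and 1321 under the same 3 settings, and 846 more negative became 3145 with size factors, 1639 after quantile normalization and 1294 when scaled to the same sum. The difference for CL1170 reversed to -0.05 with size factors (limma adjusted p = 0.773). The filter at 5 FPKM tests fewer features. For the other settings the cause was not tested. Leaving out 1 library gave 1287 to 1515 rising and 1745 to 2336 falling loci, and 1303 to 1575 rising and 1609 to 2189 falling sequences. Large falls of sequences, 127, became 258 with a pseudocount of 0.1 FPKM and 63 at a mean of at least 5 FPKM. The 271 large rises became 360 and 145 under the same 2 settings. For loci the filter gave 119 large rises and 44 large falls.

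Same-numbered replicates did not deviate together: the correlation between days was -0.047, -0.001 and 0 across sequences. A replicate block gave 1429 rising and 2185 falling loci, 1486 rising and 2021 falling sequences, and for differences from controls 3417 and 814 sequences and 3757 and 795 loci. Low levels limit the rest: a step of 1 fragment was worth a median of 0.27 FPKM in the low Unigene sequences used for relative depth. Sequences with smaller steps were left out of that value.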
